A study of Mus musculus with 42 samples.

Results

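The forestomachs of mice given the medium dose of benzo(k)fluoranthene (BkF) were compared with those of mice given the vehicle. The comparison took every forestomach array labelled D2 (50 mg/kg-bw/day, 4 mice, numbered 11, 12, 13 and 15) and every one labelled D0 (olive oil alone, 4 mice, numbered 1, 2, 3 and 4), which is 8 of the 14 forestomach arrays and 8 of the 42 arrays of the series. All were adult male Muta™Mouse, about 11 weeks old, a transgenic strain in which the vehicle mice carry the lacZ reporter as well. They were gavaged daily for 28 days, and the tissue was taken 72 h after the last dose. The series also holds lung and liver, and forestomachs at 25 (D1) and 100 mg/kg-bw/day (D3), 3 mice at each dose. Every array set the RNA of 1 mouse, labelled with Cy5, against a universal mouse reference RNA pooled from cell lines, labelled with Cy3, so each value is a log2 ratio of mouse over reference. RNA was taken from random pieces of each organ, and nothing in the labels says how much of the neighbouring glandular stomach went with a forestomach.

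The forestomach is the upper chamber of the rodent stomach. It is lined by a stratified squamous epithelium in which basal keratinocytes divide, move upward and end as flat cornified cells sealed by cross-linked proteins and lipids, whereas the adjoining glandular stomach has a simple epithelium of mucous, parietal and chief cells. BkF belongs to the polycyclic aromatic hydrocarbons, which bind the aryl hydrocarbon receptor (AhR). The bound receptor pairs with its partner Arnt and switches on genes such as Cyp1a1 and Cyp1b1, monooxygenases that oxidise the hydrocarbon itself, and Ahrr, a repressor that feeds back on the receptor. The receptor complex is known to bind a short core sequence, GCGTG.

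The promoters of those 3 genes are shown because they are the AhR genes in which the D2 and D0 mice did not overlap. Each sequence is 300 bases of the RefSeq assembly GRCm38.p6, from 250 bases before the gene start to 50 bases after it, read along the gene's strand, with each GCGTG or its reverse complement CACGC in capitals. Cyp1a1 lies at chr9:57697363-57697662 on the plus strand, Cyp1b1 at chr17:79715012-79715311 on the minus strand and Ahrr at chr13:74292282-74292581 on the minus strand.
Cyp1a1: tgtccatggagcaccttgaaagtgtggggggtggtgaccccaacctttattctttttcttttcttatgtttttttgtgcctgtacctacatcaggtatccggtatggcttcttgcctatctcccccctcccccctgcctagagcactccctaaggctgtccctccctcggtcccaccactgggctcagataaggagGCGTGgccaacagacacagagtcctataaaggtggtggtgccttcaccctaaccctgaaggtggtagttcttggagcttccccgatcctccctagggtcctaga
Cyp1b1: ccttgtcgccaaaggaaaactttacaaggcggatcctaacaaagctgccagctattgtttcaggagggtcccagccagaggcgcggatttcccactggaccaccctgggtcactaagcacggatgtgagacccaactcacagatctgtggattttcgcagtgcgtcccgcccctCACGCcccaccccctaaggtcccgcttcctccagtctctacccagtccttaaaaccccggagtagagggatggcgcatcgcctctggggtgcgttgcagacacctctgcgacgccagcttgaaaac
Ahrr: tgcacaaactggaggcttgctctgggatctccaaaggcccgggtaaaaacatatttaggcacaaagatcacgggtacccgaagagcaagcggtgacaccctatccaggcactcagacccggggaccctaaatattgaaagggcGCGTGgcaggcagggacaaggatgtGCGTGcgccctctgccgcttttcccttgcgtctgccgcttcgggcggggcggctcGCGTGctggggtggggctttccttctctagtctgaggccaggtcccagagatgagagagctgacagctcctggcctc
Cyp1a1 held 1 copy, 54 bases before the gene start. Cyp1b1 held 1 copy on the other strand, 76 bases before the start, and Ahrr held 3, at 107, 82 and 27 bases. Among all 32851 promoters of this length 32.4% held at least 1 copy and 3.9% held 3 or more, so a match by itself marks no gene as a target. Tiparp, another AhR target, also held 1 copy, and Nqo1 held 0.

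The forestomach arrays of each group differed widely in the RNA of glandular stomach genes. Gkn1, a gastrokine of the surface mucous cells, stood at log2 ratios of 5.35 and 4.74 in vehicle mice 2 and 3 but at 0.47 and 0.14 in vehicle mice 1 and 4. In the D2 group it was 5.18 in mouse 12, 5.62 in mouse 15, 2.94 in mouse 13 and 0.79 in mouse 11. Atp4a, the acid pump of the parietal cell, ran from -0.24 to 6.39 in D0 and from -0.01 to 6.28 in D2, with the same mice at the low end. A glandular stomach score, the mean over the 11 measured markers of 13 listed after each was centred on its mean over the 14 forestomachs, put all 14 arrays into a low set of 5 (-3.70 to -2.80) and a high set of 9 (0.92 to 2.19) with a gap of 3.72 between them. Vehicle mice 1 and 4 and D2 mouse 11 were in the low set. The mean score was -0.81 ± 3.23 (SD, n = 4) in D0 and 0.58 ± 2.33 (n = 4) in D2, a difference of 1.39 that an exact two-sided permutation test did not separate (p = 0.486, the smallest possible being 0.0286). It ranged from 0.42, without vehicle mouse 1, to 2.52, without D2 mouse 11, and 11 of the 11 markers had a positive difference between D2 and D0. The first principal component of the forestomach arrays held 51.1% of their variance. Every contrast is therefore given from a fit on dose alone and, where it matters, from a fit with the score as a covariate. In bulk tissue, fewer cells of a type and less RNA per cell cannot be told apart.

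The squamous keratins of the basal layer were present in all 8 mice. Krt5 lay between 3.38 and 3.83 in D0 and between 3.55 and 4.10 in D2, and Krt14 between 3.23 and 3.78 and between 3.36 and 4.02. D2 mouse 12 stood apart in its muscle. Its smooth muscle list, 11 of 11 genes measured, had a level of -1.60, where the list level is the median over the genes of the log2 ratio less that gene's mean over the 14 forestomachs. The other D2 mice had 0.40 to 1.07 and the D0 mice -0.04 to 0.58. Over all 8 mice the 11 smooth muscle genes had a median difference of 0.03 between D2 and D0, and 0 of the 11 had an unadjusted p under 0.05 in limma, against 3.32% of all genes higher and 5.51% lower. The median depended on the mice. Without mouse 12 it was 0.68, with 3 of the 11 higher at that p, and without mouse 15 or mouse 11 it was -0.22 or -0.15, with 9 negative. Within slides 2, 3 and 4 the smooth muscle median was 0.77, 0.20 and 0.94. These slides held D2 mice 15, 13 and 11 in that order. Mouse 12 lay on slide 1 with no vehicle forestomach array, so it had no part in any within-slide value. Each D2 array lay in column 3 of its slide and no other forestomach array did, so position and dose cannot be told apart. Between 29.4% and 46.9% of spots were well above background in the mouse channel of the 8 arrays.

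No probe passed the test. A call needed a Benjamini-Hochberg adjusted p no higher than 0.05 and a difference of 1.5-fold or more, and limma made 0 calls among 25321 probes (0%), both on dose alone and with the score. The lowest adjusted p was 0.483 on dose alone and 0.476 with the score. Unadjusted p-values under 0.05 were found for 1921 probes (7.59%) on dose alone, 682 higher and 1239 lower, and 1986 (7.84%) with the score, 748 higher and 1238 lower. With median centring of each array in place of loess 252 probes had such a p on dose alone and 349 with the score. The count of calls depended on vehicle mouse 4 and on the arrays of low score. With the score in the fit and without vehicle mouse 4, limma called 116 probes, 8 higher and 108 lower, among them Abca12, Tgm3, Tm7sf2 and Hsd17b7. With the score and without the 5 arrays of low score it called 53, all lower, and 27 probes were shared by both sets of calls. The genes below are therefore described by their values, and none is claimed as changed. The gene lists were chosen with earlier results of these data known. Their counts beside the share of all genes are thus descriptions and no test.

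Cyp1a1, Cyp1b1 and Ahrr lay higher in all 4 D2 mice than in any vehicle mouse. Cyp1a1 was 0.60, 0.38, -0.01 and -0.39 in vehicle mice 1 to 4 and 2.65, 4.78, 1.48 and 0.64 in D2 mice 11, 12, 13 and 15. The groups did not overlap, but mouse 15 was barely above vehicle mouse 1. The difference was 2.24 on the log2 scale (SE 0.79, limma adjusted p 0.561) and 2.24 again with the score, a value set in part by vehicle signals at background. It was 1.45 without mouse 12, 2.55 among the low-score arrays alone and 2.12 among the high-score arrays alone. The low-score arrays hold 1 D2 mouse, mouse 11, so a value among them is that of a lone mouse against 2 vehicle mice. Within the 3 slides that held both groups, which leave out mouse 12, it was 0.46, 1.87 and 2.05.

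Cyp1a1 was faint in the reference RNA. The gene was well above background in the mouse channel of 1 of 4 D0 arrays and 4 of 4 D2 arrays, and in the reference channel of 1 of 8. The raw mouse-channel signals were 5.81 to 6.67 (log2) in D0 and 6.60 to 9.11 in D2, so on that scale D2 mouse 15 lay below vehicle mouse 2 (6.67). The scanner software's own ratio, which subtracts background, gave a difference of 5.03.

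Cyp1b1 was -0.78, -1.04, -0.94 and -0.59 in vehicle mice 1 to 4 and 0.25, 1.46, -0.41 and -0.33 in D2 mice 11, 12, 13 and 15. Its groups did not overlap either, with a difference of 1.08 (SE 0.37, adjusted p 0.541) that was 0.67 without mouse 12. Ahrr was 0.04, 0.47, 0.39 and 0.05 in the vehicle mice and 1.23, 0.96, 0.50 and 0.78 in the D2 mice, a difference of 0.63 (SE 0.22, adjusted p 0.561). Its difference was 1.19 among the low-score arrays and 0.32 among the high-score arrays. The first value is set in part by signals at background, since Ahrr was not well above it in vehicle mice 1 and 4. For both genes the reference channel was well above background on 8 of 8 arrays. In the mouse channel Ahrr was well above background on 2 of 4 D0 and 4 of 4 D2 arrays, and Cyp1b1 on 4 of 4 in each group. The raw mouse-channel signals of both genes overlapped between the groups. D2 mouse 13 had 6.51 (log2) for Ahrr against 6.17 to 6.75 in D0, and 7.11 for Cyp1b1 against 6.87 to 8.16.

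The other AhR genes overlapped between the groups. Of 13 genes listed 11 could be tested, since Cyp1a2 was too dim and Ugt1a7c had no probe with that name. Cyp1a1, Cyp1b1 and Ahrr were the 3 of 11 with an unadjusted p under 0.05, all higher in D2, against 3.32% of the 13393 genes tested. They were also the 3 that did not overlap, against 1.64% of all genes. With the score 3 had an unadjusted p under 0.05, against 3.68% of all genes, and among the high-score arrays alone 0 had. By median centring 1 had on dose alone and 2 with the score. When 1 array was left out, the highest unadjusted limma p with the score was 0.0551 for Cyp1a1, 0.0494 for Cyp1b1 and 0.12 for Ahrr. In sign 10 of 11 were positive, against 56.4% of all genes, but 7 of 11 without mouse 12. The median over the battery was 0.32, or 0.03 with the score and 0.02 without mouse 12, and over all genes it was 0.04, or 0.02 with the score. The 8 genes beyond those 3 lay between -0.23 and 0.50. Tiparp, an AhR-induced ADP-ribosyltransferase, differed by 0.02 (SE 0.13), and by 0.27 on a second probe, and Nqo1, a quinone reductase, by 0.17 (SE 0.59) or -0.25 (SE 0.37) with the score.

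**Figure D1:**
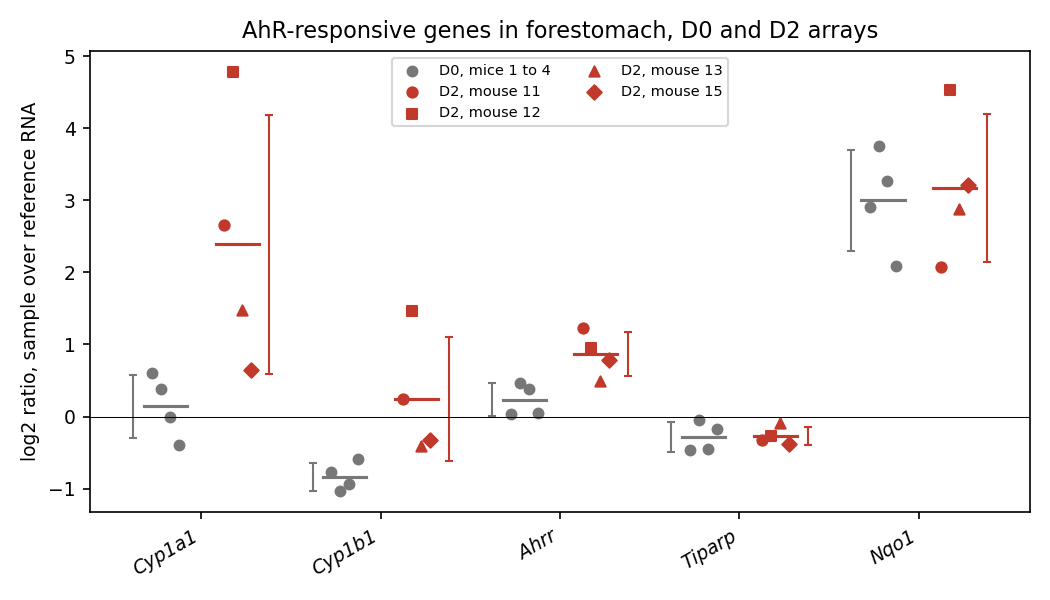
Log2 ratio of forestomach over reference RNA for Cyp1a1, Cyp1b1, Ahrr, Tiparp and Nqo1 in each vehicle (D0) and medium-dose (D2) mouse, with group means and SD. Cyp1a1, Cyp1b1 and Ahrr have all 4 D2 mice above all 4 D0 mice, and D2 mouse 12 is the highest for Cyp1a1 at 4.78.

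Krt4, a keratin of the suprabasal layers of internal squamous epithelia, was 6.37, 6.63, 6.23 and 6.02 in vehicle mice 1 to 4 and 5.66, 1.22, 3.47 and 3.26 in D2 mice 11, 12, 13 and 15. All 4 D2 mice lay below all 4 D0 mice, mouse 11 just below and mouse 12 far below. The difference was -2.91 (SE 0.79, limma adjusted p 0.483), -2.58 with the score, -2.18 without mouse 12 and -3.66 without mouse 11. The mouse-channel signal ran from 10.8 to 11.6 (log2) in D0, and it was 10.5, 6.81, 8.18 and 8.32 in the D2 mice. The reference channel was above background on 6 of 8 arrays, and the scanner ratio gave a difference of -0.73.

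Elovl4, which makes the very long fatty acids of the epithelial lipid barrier, showed the same order of mice with a reference above background on all 8 arrays. It was 8.15, 8.25, 7.96 and 7.80 in D0 and 7.22, 2.82, 6.02 and 5.36 in D2 mice 11, 12, 13 and 15. The difference was -2.69 (SE 0.78, adjusted p 0.483), -2.41 on a second probe and -2.56 by the scanner ratio. Without mouse 12 it was -1.84.

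Other genes with no overlap and wide differences were Nmu, which encodes the peptide neuromedin U (-3.13), and Il1f5 (-2.64) and Il1f8 (-2.43), the antagonist and a ligand of the interleukin-36 receptor. Wfdc21 (-3.07), Adh6a (-2.48) and Xkrx (-2.38) also had no overlap. Without mouse 12 the difference was -1.48 for Il1f5 and -1.78 for Wfdc21. In each of these, mouse 12 was the lowest of the D2 mice and mouse 11 the highest. Abca12, which loads lipid into keratinocyte granules (-2.83), Sprr2i (-2.87), Sprr2j-ps (-2.74), 9130409I23Rik (-2.69) and the squamous serpins Serpinb3a (-2.69) and Serpinb3c (-2.84) differed as widely but overlapped the D0 range through mouse 11. Sprr2i, Sprr2j-ps and the serpins have close paralogs whose RNA their probes may share.

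The cornified envelope genes, which encode the cross-linked shell of the dead surface cell and the enzymes that build it, had negative differences throughout. Of 21 tested of 24 listed, 21 had a negative difference, against 43.6% of all genes tested, and 11 had an unadjusted p under 0.05, against 5.51%. The 3 with no overlap, against 2.28% of all genes, were Sprr1b at -1.70, Tgm3 at -1.63 and Cdsn at -1.48. The median was -0.78. With the score it was -0.64, with 21 of 21 negative, against 46.3% of all genes, and 8 at an unadjusted p under 0.05, against 5.64%. By the scanner ratio the median was -0.31. By median centring it was -0.53, and the count was 2, or 1 with the score. By scale normalization between arrays the count was 5, or 3 with the score. Tgm3, a transglutaminase, has a second probe that differed by 0.18.

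The size of this shift depended on which mice were compared. With the score the median ran from -0.95 to -0.36 when 1 array was left out. On dose alone the median was -0.44 without mouse 12, with 18 negative and 4 at an unadjusted p under 0.05. Among the high-score arrays it was -1.11, with 11 at an unadjusted p under 0.05. Among the low-score arrays, vehicle mice 1 and 4 and D2 mouse 11, it was 0.03, with 8 of 21 negative, a value that rests on mouse 11 for D2. Within slides 2, 3 and 4, without mouse 12, it was -0.82, -0.45 and 0.03. By list level, the D0 mice lay between 0.29 and 0.52 and the D2 mice at 0.50, -1.44, -0.17 and -0.24 for mice 11, 12, 13 and 15, so mouse 11 was inside the vehicle range and the other 3 below it. Those 3 were also the D2 mice with high glandular scores. Among the other high-score arrays the cornified level was 0.49 and 0.52 in vehicle mice 2 and 3, -0.69 to -0.18 in the 3 D1 mice and -0.29 in D3 mouse 17. The part of the glandular content in the shift was not tested beyond the fits with the score. The D2 mouse with the lowest cornified level, mouse 12, was also the one with the lowest smooth muscle level, and the part of that in the shift was not tested.

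**Figure D2:**
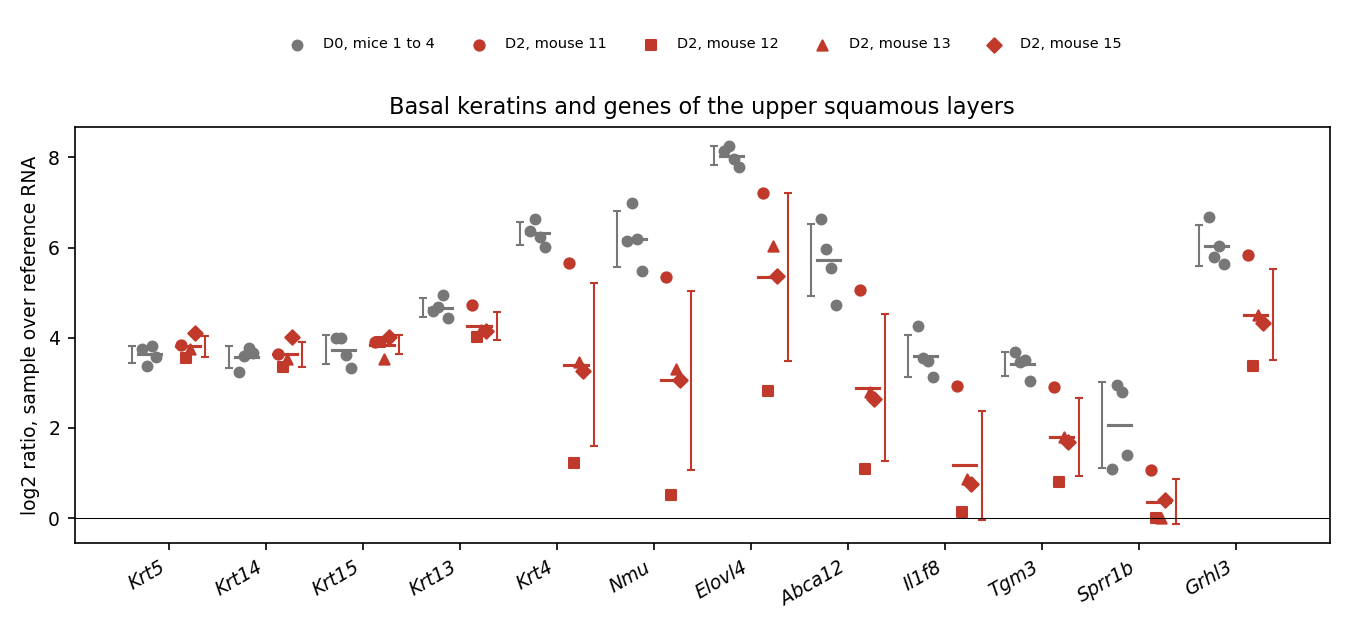
Log2 ratio in each D0 and D2 mouse for genes of the differentiated squamous layers and of the basal layer, with group means and SD. For Krt4 the D2 mice spread from 1.22 to 5.66 below a D0 range of 6.02 to 6.63, while Krt5 and Krt14 overlap between the groups.

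Basal keratins had differences close to 0. Krt5 differed by 0.18 (SE 0.15), Krt14 by 0.07 (SE 0.19) and Krt15 by 0.11 (SE 0.16), a set named after their values were seen. A second probe of Krt5 gave -0.20, and with the score and median centring in place of loess all 3 differences were negative, at -0.08, -0.09 and -0.01. Krt13, the partner of Krt4, differed by -0.40, and by -0.77 on a second probe. Itgb4, the hemidesmosome integrin that anchors basal cells, lay higher. It was 2.97, 2.71, 3.81 and 3.56 in D0 and 4.07, 4.59, 4.04 and 4.18 in D2 mice 11, 12, 13 and 15, without overlap, a difference of 0.96 (SE 0.25, limma adjusted p 0.483). Among transcription factors of squamous differentiation Grhl3 differed by -1.53, Zfp750 by -1.46 and Grhl1 by -1.26, the last without overlap. Over the 18 tested adhesion genes and regulators 4 had an unadjusted p under 0.05 downward and 1 upward, against 5.51% and 3.32% of all genes, with a median of -0.21. Over the 14 keratins there were 4 downward and 0 upward, with a median of -0.12, and without mouse 12, mouse 13, mouse 15 or vehicle mouse 3 only 1 downward. By median centring the counts downward were 3 and 1. Among the low-score arrays, with mouse 11 alone for D2, the medians of the 2 lists were 0.33 and 0.26.

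**Figure D3:**
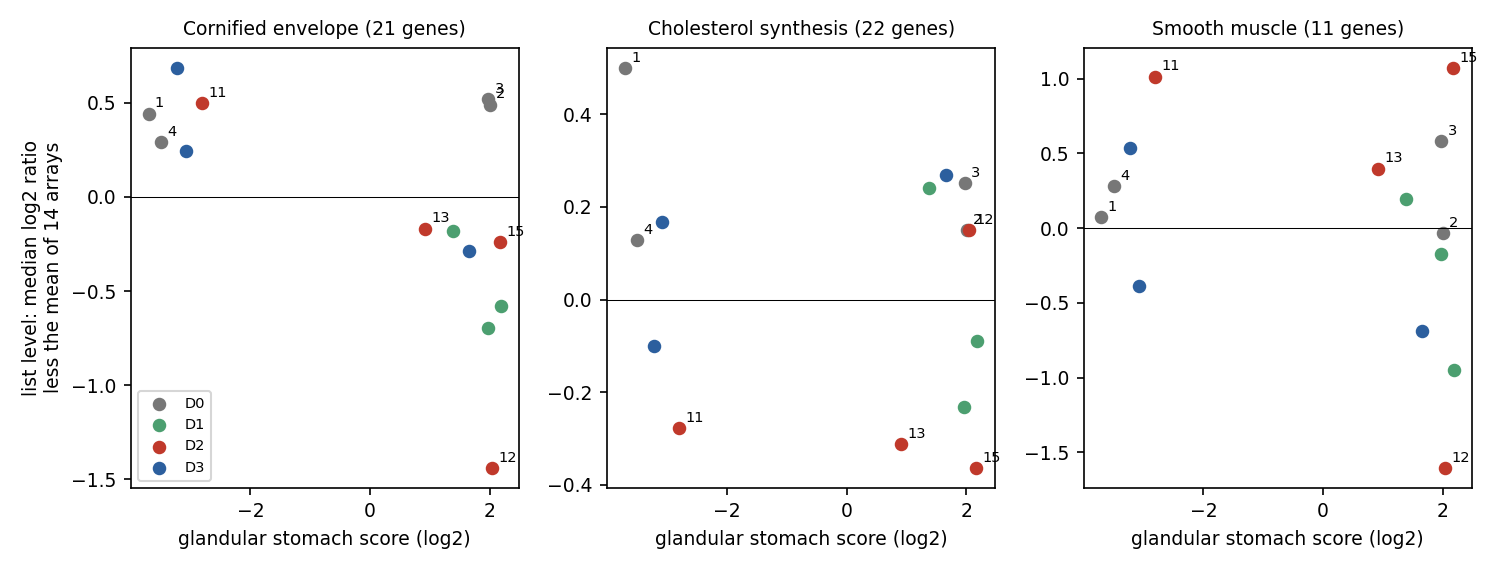
List level of cornified envelope, cholesterol synthesis and smooth muscle genes in each of the 14 forestomachs against its glandular stomach score, where the level is the median over the genes of a list of the log2 ratio less that probe's mean over the 14 arrays. Cornified envelope levels of the D0 mice stay between 0.29 and 0.52 at both ends of the score, while D2 mouse 12 is lowest at -1.44.

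Genes of cholesterol synthesis lay lower in D2, with smaller differences. Tm7sf2, a sterol reductase, was 4.41, 3.79, 3.31 and 2.93 in vehicle mice 1 to 4 and 2.89, 1.59, 2.05 and 1.51 in D2 mice 11, 12, 13 and 15. The groups did not overlap, although mouse 11 and vehicle mouse 4 nearly met. The difference was -1.60 (SE 0.40, limma adjusted p 0.483) and -1.40 on a second probe.

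Hsd17b7, a reductase of the same route, differed by -1.04, Sc5d, which places the ring double bond, by -0.96, Pmvk, a kinase of the mevalonate steps, by -0.57 and Mvk by -0.63, each without overlap. Without vehicle mouse 1 the difference of Hsd17b7 was -0.68. Of 22 genes tested, 21 were negative, against 43.6% of all genes, 6 lay lower at an unadjusted p under 0.05, against 5.51%, and 6 lay lower without overlap, against 2.28%. The median was -0.38, and -0.45 with the score, where 22 were negative and 7 had an unadjusted p under 0.05, against 5.64%. By median centring the medians were -0.37 and -0.49, and 2 genes had such a p in each fit.

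Among the low-score arrays this list was lower too, with a median of -0.52 and 22 of 22 negative for mouse 11 against 2 vehicle mice. Within slides 2, 3 and 4 the medians were -0.47, -0.37 and -0.74, each for a lone D2 mouse, 15, 13 and 11. Slide 4 set mouse 11 against vehicle mouse 1, both of low score, and mouse 12 had no part in these values. The list median was -0.27 among the high-score arrays, with 18 negative. The list level was 0.15 in mouse 12, inside the D0 range of 0.13 to 0.50, and -0.28, -0.31 and -0.36 in mice 11, 13 and 15. Without mouse 12 the median was -0.51 and 9 genes had an unadjusted p under 0.05. The reference channel was above background on all 8 arrays for 22 of 22 genes. Srebf2, the transcription factor of the route, differed by -0.20, and by -0.0024 on a second probe, and was named after its value was seen.

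**Figure D4:**
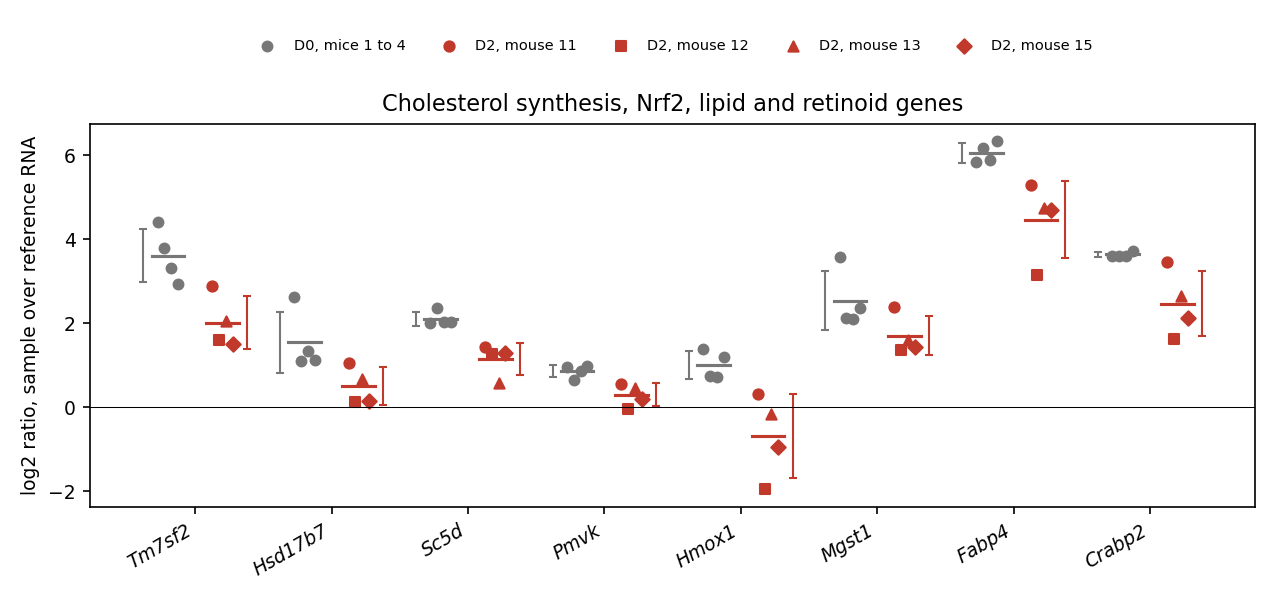
Log2 ratio in each D0 and D2 mouse for 4 genes of cholesterol synthesis and for Hmox1, Mgst1, Fabp4 and Crabp2, with group means and SD. Tm7sf2, Hsd17b7, Sc5d and Pmvk have all 4 D2 mice below all 4 D0 mice.

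Cfd and Fabp4 had wide differences in a fat list that was otherwise mixed. Cfd, the adipocyte protease adipsin, was 4.82, 2.71, 0.76 and 6.36 in D0 and between -0.09 and 0.52 in D2, where no array had it well above background. It was at least 9.25-fold lower in D2 (limma adjusted p 0.634), a bound set by the dimmest measurable signal and by a D0 mean over mice that differed widely. Without vehicle mouse 4 the bound was 4.27-fold. The reference channel had it above background on 1 of 8 arrays. Fabp4, a fatty acid carrier of fat and endothelium, lay between 5.84 and 6.34 in D0 and between 3.14 and 5.28 in D2, a difference of -1.59. Fat genes had 2 of 6 at an unadjusted p under 0.05, both lower, against 5.51% of all genes, with a median of -0.96. With the score the count was 1, against 5.64% of all genes, and the median -0.55. On dose alone by median centring the count was 1 and the median -0.35. Without vehicle mouse 4 the count was 1 and the median -0.39, without any other single D0 or D2 array the count was 1 or 2, and among the high-score arrays the median was -0.05. A further 3 markers, Lep, Plin1 and Ucp1, were too dim to test. The fat list level ran from -0.41 to 1.51 in D0 and from -1.28 to -0.54 in D2.

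Hmox1, the heme-degrading oxygenase, was 1.38, 0.75, 0.72 and 1.20 in D0 and 0.33, -1.95, -0.16 and -0.94 in D2 mice 11, 12, 13 and 15, a difference of -1.69 (SE 0.48, adjusted p 0.483) with no overlap. A second probe gave -0.68. Mgst1, a microsomal glutathione transferase, differed by -0.84, or by -0.50 without vehicle mouse 1. They were the 2 of 20 Nrf2 and glutathione genes with an unadjusted p under 0.05, both lower, against 5.51% of all genes, and the median of that list was -0.08. By median centring 1 gene of this list had such a p. Me1, malic enzyme, also had no overlap, at -0.27.

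Of the 18 retinoid genes tested 3 lay lower and 1 higher at an unadjusted p under 0.05, against 5.51% and 3.32% of all genes, with a median of 0.02. The higher one was the receptor gene Rxrb at 0.29. The lower ones were Cyp26b1, a retinoic acid hydroxylase (-1.27), Crabp2, a retinoic acid carrier (-1.17, no overlap), and Dhrs9, a retinol dehydrogenase (-0.85). Without mouse 12 the difference of Cyp26b1 was -0.75, and among the low-score arrays that of Dhrs9 was 0.021. Of 41 endocytosis genes 3 lay higher and 4 lower, against 3.32% and 5.51% of all genes, with a median of -0.01, and without D2 mouse 15 there were 0 and 2. By median centring 0 genes of either list had an unadjusted p under 0.05 in limma. Rab5a, the early endosome GTPase, was among the lower ones at -0.60 without overlap, and at -0.70 on a second probe, as was Arf6, another membrane GTPase, at -0.70 without overlap. They were the 2 of 41 that lay lower without overlap, against 2.28% of all genes. In the other direction 2 lay higher without overlap, against 1.64%.

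The DNA damage genes were listed as p53 targets and as genes of repair and lesion bypass. Of 21 p53 targets 0 had an unadjusted p under 0.05 in limma on dose alone, against 3.32% of all genes higher and 5.51% lower, and 2 with the score, 1 in each direction, against 3.68% and 5.64%. On dose alone 2 were higher by the scanner ratio, 2 higher and 1 lower without vehicle mouse 4, and 3 lower with the slide as a fixed block. Cdkn1a, the cell cycle inhibitor p21, was 1.06, 0.57, 0.62 and 0.27 in D0 and -0.16, 0.84, -0.04 and -0.11 in D2 mice 11, 12, 13 and 15. Its difference was -0.50 (SE 0.25, adjusted p 0.685), and without mouse 12, the one D2 mouse inside the D0 range, it was -0.73 (SE 0.22, adjusted p 0.716). Mdm2 differed by 0.30 (SE 0.17), from 0.20 without mouse 13 to 0.46 without vehicle mouse 4, and Ccng1 by 0.32 (SE 0.28), or 0.19 without mouse 12 and 0.13 without vehicle mouse 4, each with overlapping groups. Of 16 genes of nucleotide excision repair and lesion bypass 2 were higher, Rev3l, a bypass polymerase, by 0.56 and Ddb1, a damage recognition subunit, by 0.42, and 1 was lower, against 3.32% and 5.51% of all genes. Among 18 proliferation genes 2 were higher, against the same 3.32%, among them the helicase subunit Mcm6 at 0.83. With the score 1 repair gene was higher and 1 lower, and 1 proliferation gene was higher, against 3.68% and 5.64% of all genes. In that fit Mcm6 ran from 0.39 to 0.65 when 1 array was left out.

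Among 14 circadian clock genes 3 were higher and 1 lower at an unadjusted p under 0.05 with the score in the fit, against 3.68% and 5.64% of all genes, with a median of 0.27. Dbp and Tef, related clock output factors, differed by 1.06 and 0.75 in that fit, and Clock by -0.52. On dose alone 1 was higher and 1 lower, against 3.32% and 5.51%.

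Beyond Cyp1a1, Cyp1b1 and Itgb4, the genes named for differences upward with no overlap were a mixed set. Lyz1, a lysozyme, was 1.36, 1.63, 0.92 and 1.90 in D0 and 2.00, 4.53, 2.59 and 2.66 in D2 mice 11, 12, 13 and 15, a difference of 1.49 (SE 0.44, limma adjusted p 0.483) that was 0.96 without mouse 12. Marco, a scavenger receptor of macrophages, was well above background on 0 of 4 D0 arrays and 4 of 4 D2 arrays, at least 2.11-fold higher (adjusted p 0.483), a bound that was 1.61-fold without mouse 13. It was no member of the macrophage list, in which 1 of 9 genes, Itgam at 0.52, had an unadjusted p under 0.05, against 3.32% of all genes higher, and the median was 0.06. A second Itgam probe gave -0.03. Six2, a homeobox factor, differed by 1.07, a value set in part by signals at background. It was well above background on 1 of 4 D0 and 4 of 4 D2 arrays. Pappa, a protease of the insulin-like growth factor system (0.99), Col18a1, a basement membrane collagen (0.91, or 0.57 without mouse 12), Inppl1, a lipid phosphatase (0.90), and Rai1 (0.88) completed the set.

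With the score in the fit further values were 1.07 for Mucl3, or 0.53 without mouse 11, 0.93 for Mapk8ip3, 0.84 for Hal and 0.83 for Inmt, all overlapping, and Mapk8ip3 has a second probe at 0.29 in that fit. On dose alone the differences were 2.53 for Mucl3, 0.84 for Mapk8ip3, 0.43 for Hal and 0.55 for Inmt. Leaving out 1 array gave 1.37 to 3.63, 0.62 to 1.14, 0.14 to 0.69 and 0.32 to 0.84 in that order. Mucl3 and Hal were each well above background on 2 of 4 D0 arrays. Try5, a pancreatic trypsin, was -2.47 with the score and -1.38 on dose alone, with 5.20 and 4.92 in vehicle mice 2 and 3 and 0.06 and -0.46 in vehicle mice 1 and 4. On dose alone it ran from -2.34 to -0.46 when 1 array was left out. It was well above background on 2 of 4 D0 and 3 of 4 D2 arrays. Of the 7 pancreatic acinar genes tested 1 was lower at an unadjusted p under 0.05 on dose alone and 2 with the score, against 5.51% and 5.64% of all genes. Of other cells that the pieces may hold, on dose alone and with all arrays, 0 of 7 skeletal muscle, 0 of 6 T cell, 0 of 4 B and plasma cell, 0 of 8 nerve, 0 of 8 mast cell and 0 of 7 liver genes had an unadjusted p under 0.05, and 1 of 10 fibroblast genes was higher, against 3.32% of all genes. With the score 3 of the 10 fibroblast genes were higher, against 3.68%, and 1 of the 7 liver genes was lower, against 5.64%.

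Against the doses on either side, the AhR genes and the squamous genes were placed differently. The mean of Cyp1a1 was 0.15 in D0, 0.73 in D1, 2.39 in D2 and 3.39 in D3, and that of Ahrr was 0.24, 0.29, 0.87 and 1.46. Cyp1b1 was -0.84, -0.80, 0.24 and 0.41. For these genes D2 lay between D1 and D3.

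Krt4 had means of 6.31, 3.25, 3.40 and 5.61 in D0, D1, D2 and D3, and Elovl4 of 8.04, 5.06, 5.35 and 7.29. Tm7sf2 had 3.61, 1.82, 2.01 and 2.99. In these the D2 mean was next to that of D1, and the D3 mean lay between D2 and D0. All 3 D1 arrays were in the high-score set and 2 of the 3 D3 arrays in the low-score set. limma called 0 probes between D2 and D3, with 585 at an unadjusted p under 0.05 and 759 with the score, and 0 between D2 and D1, with 1161 and 1072. The D2 group is shared by these contrasts and the contrast with D0.

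The same mice allowed the forestomach difference to be set against that in lung, where the question was whether the medium dose acted alike in both tissues. limma called 3 of 24179 probes (0.0124%) for a different D2 minus D0, all smaller in forestomach. Ahrr differed by 0.63 in forestomach and 4.15 in lung, a difference between tissues of -3.52 (SE 0.37, limma adjusted p 0.00199). Cyp1b1 differed by 1.08 and 5.50 (-4.42, SE 0.65, adjusted p 0.045), and the unnamed probe A_55_P2004099 by 0.02 and 2.14 (-2.12, SE 0.30, adjusted p 0.045). Cyp1a1 differed by 2.24 and 6.28, but its difference between tissues, -4.04 (SE 0.89), had an adjusted p of 0.628 and turned to 0.98 by the scanner ratio, which called 0 probes. Without D2 forestomach mouse 12 it was -4.84 (adjusted p 0.00525 in limma), one of the calls made there. Without D2 forestomach mouse 11 the count was 12, without D2 forestomach mouse 12 it was 5, without lung mouse 13 or 15 of D2 it was 2 and 3, and without any 1 of the 12 other arrays it was 1. The call lost without lung mouse 13 was that of Cyp1b1 (adjusted p 0.111 in limma). In those 12 settings, and with no filter on dim probes, Cyp1b1 and A_55_P2004099 were the calls lost, with adjusted p-values from limma of 0.0572 to 0.16, and Ahrr was called. Tiparp differed by 0.02 in forestomach and 1.00 in lung (-0.98, SE 0.26, adjusted p 0.628).

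**Figure D5:**
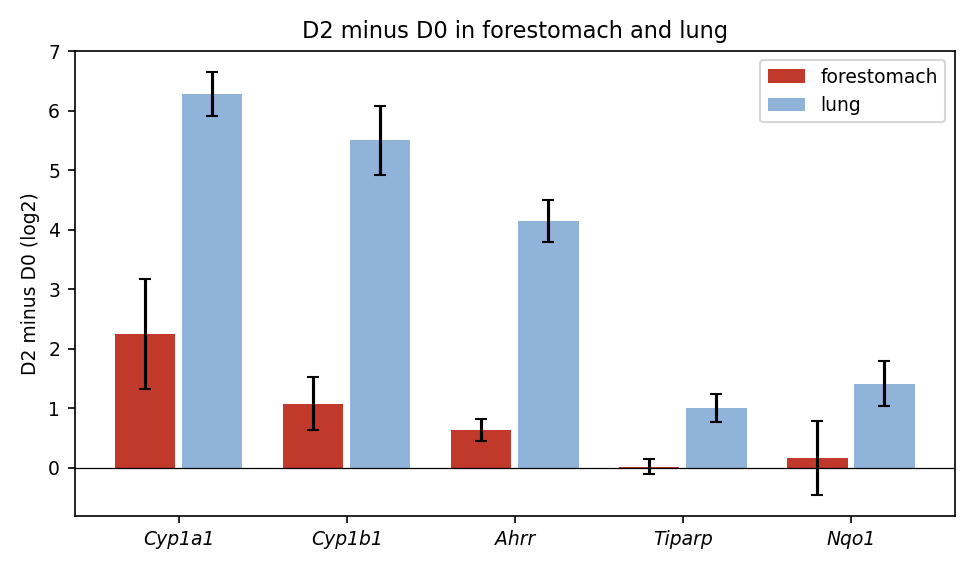
D2 minus D0 in forestomach and in lung (log2) for 5 AhR genes, with error bars that are standard errors from the SDs of the 4 mice in each group and not those of the limma fit. Ahrr and Cyp1b1, at 0.63 and 1.08 in forestomach against 4.15 and 5.50 in lung, are the named genes whose difference between tissues limma called.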

How the data were processed

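Per the file headers, Agilent Feature Extraction gave each spot's median intensity in both channels, with background, flags and a background-subtracted, dye-normalized log10 ratio. The authors also deposited a table of log2 ratios after loess. Here log2(mouse median / reference median) was loess-normalized within each array (4 iterations), control and outlier spots were left out, and spots of a probe were averaged. Probes well above background in the mouse channel on at least 3 forestomach arrays were tested. The comparison with lung took those that were also well above background on at least 4 of the 8 lung arrays. limma 3.58.1 in R 4.3.3 (data.table version 1.17.8) fitted all 14 forestomach arrays by dose group, alone or with the glandular stomach score, in place of the MAANOVA of the study's methods. The D2 and D0 groups share no mouse, and lung and forestomach do. The files hold medians only, so normexp, an alternative, ran on medians.

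A gene is represented by its brightest tested probe. Names came from RefSeq accessions, for 26413 probes (47.4%); 6651 probes had an accession without a current name. Genes were named if among the 10 highest or lowest with no overlap and an unadjusted p under 0.05, the 10 highest or lowest with the score at p under 0.01, a fixed set of 8 genes, or at the ends of a list. The 33 lists (454 genes) and the members were chosen with earlier results of these data known. On simulated data with 25287 probes, the dose-alone fit recovered 56% of 50 genes changed by 1 log2 unit and 88% of those changed by 2, and the fit with score 76% and 92%. Of the unchanged probes these fits called 7 and 11. The simulation gave each probe the same spread in all dose groups, with noise independent between probes. In the real data the spread could be far wider in D2, as for Krt4, with an SD of 0.26 in D0 and 1.81 in D2. The simulation therefore does not show what share of real differences would be called. The number of arrays limits the precision. The labels do not say more of the replicates than that each is 1 mouse. Alternatives were other background, scaling and filter settings, the slide as a block, other scores, and leaving out each array.
Values of some genes are not reported here.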

Additional observations from a re-analysis of the deposited data

Results flagged for a closer look

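Among 130 groups of 4 mice tested for a value far from the other 3, 6 held one, and chance flags about 1 in 20 groups. Cdkn1a was 0.84 in D2 mouse 12 against -0.16 to -0.04 in the other D2 mice. Marco was 2.41 in D2 mouse 13 against 0.52 to 0.71. Hsd17b7 was 2.62 in vehicle mouse 1 against 1.10 to 1.33, and Sc5d was 2.36 in vehicle mouse 2 against 2.01 to 2.03. Crabp2 was 3.72 in vehicle mouse 4 against 3.60 to 3.61, a small gap in a tight group, and Dhrs9 was 1.67 in vehicle mouse 2 against 1.00 to 1.07.

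The D2 minus D0 difference was smaller in forestomach than in lung for Ahrr by -3.52, for Cyp1b1 by -4.42 and for the unnamed probe A_55_P2004099 by -2.12 (log2), each called by limma. The call of Cyp1b1 was lost without any 1 of 13 of the 16 arrays, that of A_55_P2004099 without any 1 of 12, and that of Ahrr by the scanner ratio.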

How the results depend on the processing

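limma made 0 calls for D2 against D0 on dose alone under every alternative run except leaving out the arrays of low score, which gave 1 (Myl7). With the score the count was 53 without the arrays of low score and 0 to 116 when 1 array was left out, the 116 without vehicle mouse 4. D2 against D1 with the score gave 0 to 1. The comparison with lung gave 0 by the scanner ratio, 1 with no filter on dim probes and 1 to 12 when 1 array was left out. The fit with the score on the 5 arrays of low score alone has 1 residual degree of freedom. It made 0 calls, and 41 of the 65 genes examined had the other sign there, so it is not used further.

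In the other fits signs turned for these genes. Nqo1 was -0.11 with slide fixed and -0.43 without the arrays of high score, and with the score 0.0014 by median centring and 0.30 without low score. Krt14 was -0.056 without low score, and with the score -0.092 by median centring and -0.053 without low score. Tiparp was -0.0011 without high score, and with the score -0.0051 by the scanner ratio and -0.028 without low score. Without high score Krt13 was 0.20 and Dhrs9 0.021. With the score and median centring Krt5 was -0.085 and Krt15 -0.0068. Cyp1a1 in forestomach less lung was 0.98 by the scanner ratio. Leaving out 1 array gave Tiparp -0.042 to 0.10 (with score -0.064 to 0.14), Nqo1 -0.28 to 0.54, Krt14 -0.059 to 0.16 (-0.039 to 0.20) and Krt15 -0.030 to 0.21 (-0.024 to 0.20). The causes were not tested.

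D2 and D0 forestomachs share no mouse number, so the mouse could not pair them. With the slide as a fixed block limma made 0 calls on dose alone, with 2249 probes at an unadjusted p under 0.05, and 0 with the score, with 3109, and as a random block 0 and 0, with 2534 and 2677. With the mouse as a replicate block, forestomach against lung gave 4 calls in place of 3, with a correlation within mouse of 0.206.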
